A study of Rattus norvegicus with 6 samples.

Results

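The genes described here are targets of the transcriptional co-activator YAP and of serum response factor (SRF), together with the contractile genes of smooth muscle and of stress fibres. They were chosen by name: 34 genes were listed, 32 of them were named on the array, by 52 of its 45598 probes, and Arhgef17 and Tead4 were not found by that name. All 32 passed the filter on dim probes and were among the 19616 genes tested. RNA came from rat bone marrow stromal cells (rBMSCs), adherent cells grown from the marrow of rat tibias, after 7 days of culture on a tantalum-modified titanium surface (Ta-modified Ti surface, here Ta) or on titanium without that layer (simple Ti surface, here Ti). Each group had 3 arrays, which the series' design text calls independent experiments, and no animal strain, age or further agent is given in the labels. The comparison asks which of these transcripts differed between the 2 surfaces. Because the cells are a mixed primary culture measured in bulk, fewer cells of a type and less RNA per cell cannot be told apart.

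YAP and its relative TAZ enter the nucleus when cells spread and pull on a stiff support, bind TEAD factors and switch on genes such as Ccn2, Ccn1 and Ankrd1. The Hippo kinases, LATS1 and LATS2 among them, phosphorylate YAP and keep it in the cytoplasm, and several of their regulators are themselves YAP targets. SRF binds the CArG box and, with myocardin-related cofactors that are released as actin polymerises, drives smooth muscle and cytoskeletal genes. In marrow stromal cells these genes are known to respond to cell shape and to the stiffness and texture of the culture surface.

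Promoter sequence was taken from RefSeq (GRCr8) for 24 of the 32 genes, which had 33 windows of 300 bases, from 250 before to 50 after a start site. Some genes have several windows. The TEAD core GGAATG, or CATTCC on the other strand, was in 10 of the 33 windows (30.3%) and in 14.2% of all 33469 windows. The CArG box was counted only in its strict form, CCWWWWWWGG with W for A or T, a pattern that is the same on both strands. It was in 5 of the 33 windows (15.2%) and in 1.64% of all windows. No match of either motif overlapped a match of the other. The windows with a CArG box of this form belonged to Srf, Fhl1, Fhl2 and Cnn2. Forms with a changed base were not searched for, in the Acta2 window or any other. Shown are the 200 bases before a start site for the 4 genes with a motif whose Ta arrays all lay below the Ti arrays on the brightest probe, and for Srf, with motifs in capitals. A match is a description of letters and not a site of binding, and a window without one says nothing about the factor.
Ccn2 promoter, chr1:22624615-22624814, minus strand: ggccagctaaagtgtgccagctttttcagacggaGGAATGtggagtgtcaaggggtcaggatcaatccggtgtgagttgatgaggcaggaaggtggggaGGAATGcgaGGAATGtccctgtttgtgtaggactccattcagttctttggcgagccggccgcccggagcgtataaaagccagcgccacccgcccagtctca
Acta2 promoter, chr1:241172504-241172703, minus strand: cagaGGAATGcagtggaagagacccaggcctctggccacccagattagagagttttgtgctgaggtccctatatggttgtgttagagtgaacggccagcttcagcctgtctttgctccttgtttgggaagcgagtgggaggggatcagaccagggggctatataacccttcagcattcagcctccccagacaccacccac
Ptpn14 promoter, chr13:103799294-103799493, plus strand: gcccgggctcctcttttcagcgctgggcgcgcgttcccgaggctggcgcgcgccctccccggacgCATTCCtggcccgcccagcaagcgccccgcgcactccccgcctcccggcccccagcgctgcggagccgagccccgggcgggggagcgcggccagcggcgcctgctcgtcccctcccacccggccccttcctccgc
Fhl1 promoter, chrX:139638296-139638495, plus strand: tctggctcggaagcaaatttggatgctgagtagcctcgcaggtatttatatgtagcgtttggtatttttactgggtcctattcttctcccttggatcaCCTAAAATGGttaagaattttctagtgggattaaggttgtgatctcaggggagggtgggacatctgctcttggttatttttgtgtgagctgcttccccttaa
Srf promoter, chr9:21923876-21924075, plus strand: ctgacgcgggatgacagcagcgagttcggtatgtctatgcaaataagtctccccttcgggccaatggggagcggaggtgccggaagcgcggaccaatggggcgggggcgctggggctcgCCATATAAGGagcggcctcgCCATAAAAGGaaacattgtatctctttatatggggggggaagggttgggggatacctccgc
The Ccn2 promoter held 3 TEAD cores, starting 166, 101 and 92 bases before the start site, and those of Acta2 and Ptpn14 held 1 each. The Srf promoter held 2 CArG boxes, 81 and 61 bases before the start, and the Fhl1 promoter held 1, at 102 bases.

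None of the 32 genes (0) passed an adjusted p of 0.05 in limma, where 4.12% of all tested genes did, 2.66% higher and 1.47% lower on Ta. The largest differences were lower signals of Fhl1, Acta2 and Ccn2 and a higher signal of Ankrd1 on Ta. Before adjustment 8 of the 32 had a p under 0.05, against 30.0% of all genes. For the same 8 the groups did not overlap, with Ta above in 3 and below in 5 on the brightest probe (Ptpn14, counted below, has a second probe with Ta above), against 35.8% of all genes (19.5% above and 16.3% below). The median log2 difference, Ta minus Ti, was 0.04 over the 32 genes and 0.03 over all genes, and the median size without regard to sign was 0.14 and 0.20. A difference of 2-fold or more was seen in 1 of the 32, Fhl1, and in 5.18% of all genes. The 95% interval of the difference, from limma, lay wholly within 0.5 log2 units of 0 for 17 of the 32 genes and within 1 unit for 30. In limma the genes that passed numbered 4 without Ta replicate 1 (16.4% of all genes), 1 without Ti replicate 2 (7.97%) and 7 without both (24.7%), while without any 1 of the other 4 arrays 0 of the set passed in limma (4 to 7 before adjustment), as did 0 of all 19616 genes (3818 to 4474 before adjustment), so that these fits say nothing particular about the set. With all 6 arrays, 0 passed under quantile scaling (3.97%), the percentile of detected probes (4.16%), kept outlier spots (4.13%), the mean of probes (4.07%) and rounding (4.11%), each with 8 before adjustment, and 1, Fhl1, passed under median scaling (3.96%) and where probes had to be well above background on every array (6.59%). It was 4 with normexp background correction (13.3%) and with trend and robust settings (10.7%), and 15 with array weights (51.9%).

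**Figure D1:**
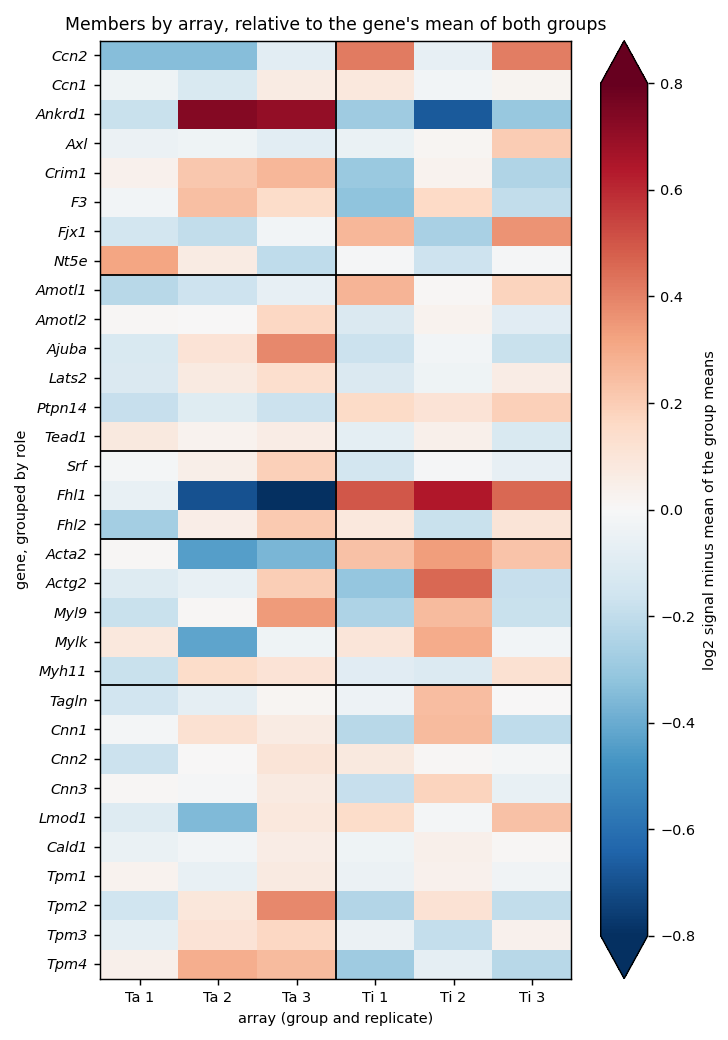
Signal of each of the 32 genes on each array (columns), as log2 signal minus the mean of the Ta and Ti means, with genes in rows grouped by role in 5 blocks and colours capped at 0.8. Fhl1 and Acta2 are low on Ta replicates 2 and 3, Ankrd1 is high there, and Ti replicate 2 is high for Actg2, Myl9, Tagln and Cnn1.

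Array structure bears on these values. Over all genes Ta replicate 1 was the Ta array nearest to the Ti mean in 54.8% of genes, and in 14 of the 32 described here. Only Ti replicate 2 carried the quality mark of the scanner software that asks for evaluation. A single slide and a single scan held the 6 arrays; its row 1 carried every Ta array plus Ti replicate 1, and row 2 the remaining Ti arrays. Spots well above background made up 62.7% to 65.9% per array, and none of the 32 genes (0) was saturated on any array. All but Ankrd1 were well above background on all 6 arrays.

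Among secreted and surface targets of YAP, the data differed from gene to gene. Ccn2, also known as Ctgf, encodes a matricellular growth factor and measured 13.76, 13.77 and 14.02 on Ta replicates 1 to 3 and 14.52, 14.04 and 14.51 on Ti (log2 scaled signal, as for all values below). The groups were separated only by the narrow gap between Ta replicate 3 and Ti replicate 2. The difference was -0.51 ± 0.16 (log2, SE, n = 3 per group), a signal 1.42-fold lower on Ta, with a limma adjusted p of 0.0996. Without Ti replicate 2 it was -0.67 and passed. Its close relative Ccn1, or Cyr61, lay between 13.63 and 13.81 on Ta and between 13.73 and 13.83 on Ti, and the groups overlapped. Its difference was -0.06, with a 95% interval from -0.27 to 0.15.

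Ankrd1, a nuclear and sarcomeric ankyrin repeat protein, measured 4.23, 5.14 and 5.10 on Ta and 4.12, 3.73 and 4.10 on Ti. It was dim, and well above background on all 3 Ta arrays and 2 of 3 Ti arrays. Ta replicate 1 lay close to the Ti arrays, and Ta replicates 2 and 3 were clearly higher. The difference was 0.84 ± 0.27 with a limma adjusted p of 0.102, and without Ta replicate 1 it was 1.14 and passed. With normexp background correction it was 0.30 and did not pass, so that its size depends on the treatment of background.

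Crim1, a transmembrane protein that binds bone morphogenetic proteins, measured 13.73, 13.92 and 13.96 on Ta and 13.40, 13.73 and 13.46 on Ti. Ta replicate 1 and Ti replicate 2 all but met. The difference was 0.34 ± 0.12 (limma adjusted p = 0.122), and a second probe gave 0.54. F3, the tissue factor that starts blood coagulation, was 0.24 higher on Ta with overlapping groups (95% interval from -0.12 to 0.60). For Nt5e, a surface enzyme that makes adenosine, the difference was 0.12. The receptor tyrosine kinase Axl differed by -0.11 and its second, dimmer probe by 0.15. Fjx1, a relative of the fly gene four-jointed, measured 5.62, 5.58 and 5.75 on Ta and 6.04, 5.51 and 6.13 on Ti. Ti replicate 2 lay below every Ta array and the other Ti arrays above them, and the difference was -0.24 ± 0.17 (limma adjusted p = 0.388). It was -0.43 without Ti replicate 2, -0.13 without Ti replicate 3 and -0.051 with normexp background correction, and passed in none (0) of these 3 fits. Of the 8 measured genes in this group, 4 were higher and 4 lower on Ta.

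**Figure D2:**
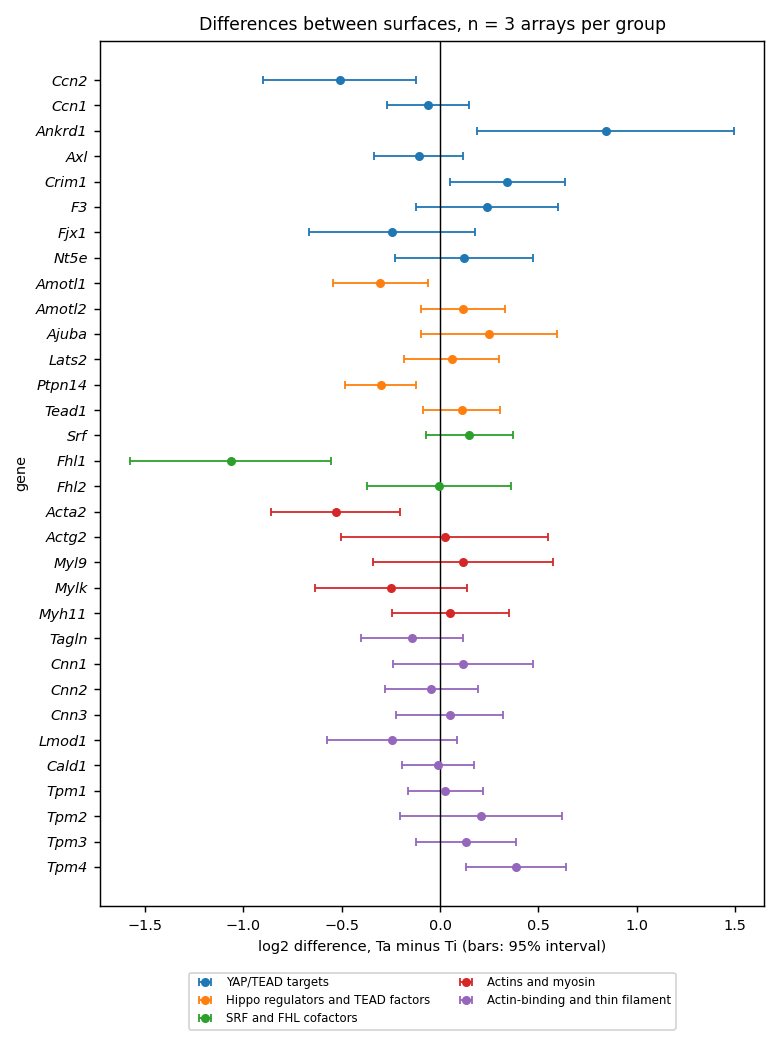
Log2 difference, Ta minus Ti, for each of the 32 genes (points) with its 95% interval from limma (bars), coloured by role, n = 3 arrays per group. The intervals of 8 genes leave out 0 before adjustment: Fhl1, Acta2, Ccn2, Amotl1 and Ptpn14 lie below it and Ankrd1, Crim1 and Tpm4 above it.

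The regulators of the Hippo pathway and the TEAD factor were measured next. Amotl1, a junction scaffold that binds YAP, measured 7.54, 7.59 and 7.70 on Ta and 8.03, 7.77 and 7.94 on Ti, so that all Ta arrays lay below all Ti arrays. Its difference was -0.30 ± 0.10 with a limma adjusted p of 0.107. Amotl2, the related scaffold, lay between 13.91 and 14.07 on Ta and between 13.79 and 13.93 on Ti, with a difference of 0.12. The kinase Lats2, which phosphorylates YAP, differed by 0.06 (95% interval from -0.18 to 0.30). Ajuba, a LIM protein that inhibits LATS kinases, measured 10.61, 10.84 and 11.11 on Ta and 10.55, 10.70 and 10.55 on Ti. The groups overlapped, and the difference was 0.25 ± 0.14 (limma adjusted p = 0.290), or 0.12 without Ta replicate 3. Tead1, the transcription factor through which YAP acts, lay between 10.62 and 10.67 on Ta and between 10.46 and 10.63 on Ti, a difference of 0.11. Its second, dimmer probe measured 6.45, 6.80 and 6.93 on Ta and 6.26, 6.43 and 6.19 on Ti, without overlap. That probe differed by 0.43 ± 0.15 and did not pass when tested on its own (limma adjusted p = 0.115). The mean of the Tead1 probes differed by 0.27.

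Ptpn14, a phosphatase that binds YAP and holds it outside the nucleus, gave opposite results on its 2 probes. The brightest probe measured 11.36, 11.45 and 11.38 on Ta and 11.70, 11.66 and 11.74 on Ti, a difference of -0.30 ± 0.07 with a limma adjusted p of 0.0691. The dimmer probe, designed on NM_001107200, measured 7.20, 7.18 and 7.15 on Ta and 6.82, 6.79 and 6.75 on Ti, a difference of 0.39 ± 0.07. Replicates were tight on both probes and the groups did not overlap on either. With each probe tested on its own, the dimmer probe passed (adjusted p = 0.0472 over 25774 probes, of which 4.31% passed). The log2 ratio of the dimmer to the brighter probe within an array was 0.69 higher on Ta, which follows from the 2 differences and is no further evidence. Such ratios did not overlap between the groups in 5 of the 20 probe pairs of the set, several of which share a probe. The share over all probe pairs of the array was not taken, so nothing is read from this count. The direction of Ptpn14 is therefore uncertain, and the mean of its probes differed by 0.04.

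**Figure D3:**
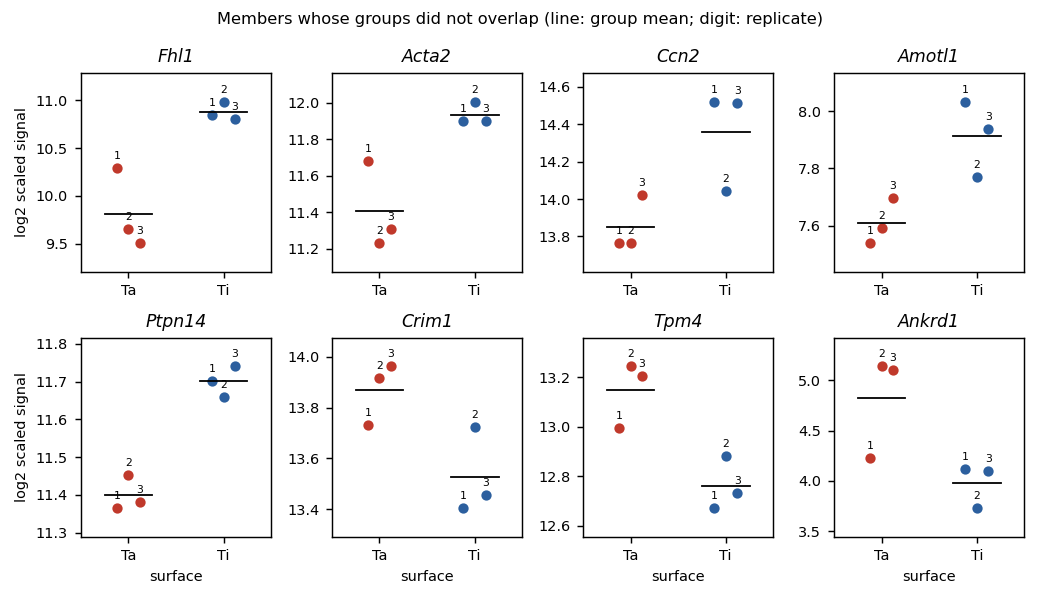
Log2 scaled signal on each array (points, numbered by replicate) for the 8 genes whose Ta arrays (left, red) all lay beyond their Ti arrays (right, blue), with group means as lines and a separate axis per gene that does not start at 0. Ta replicate 1 sits nearest to Ti for Fhl1, Acta2, Crim1, Tpm4 and Ankrd1, and Ti replicate 2 nearest to Ta for Ccn2, Amotl1, Ptpn14, Crim1 and Tpm4.

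Fhl1 was the gene with the largest difference in the set. It encodes a LIM-domain protein abundant in muscle, and its relative Fhl2 encodes a cofactor of SRF and other transcription factors. Fhl1 measured 10.29, 9.65 and 9.50 on Ta and 10.85, 10.99 and 10.80 on Ti. All Ti arrays lay within a narrow band, and Ta replicate 1 lay between them and the other Ta arrays. The difference was -1.06 ± 0.21, a signal 2.09-fold lower on Ta (95% interval of the log2 difference from -1.57 to -0.55), with a limma adjusted p of 0.0505. This value is at the threshold: over the alternatives the adjusted p ran from 0.000938 to 0.217, and without Ta replicate 1 the difference was -1.30 and passed (0.00715). Fhl2 did not move with it, at 9.24, 9.57 and 9.72 on Ta and 9.60, 9.34 and 9.62 on Ti, a difference of -0.01. Srf itself lay between 12.04 and 12.25 on Ta and between 11.91 and 12.05 on Ti, with a difference of 0.15 ± 0.09 and an adjusted p of 0.315.

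Of the actin and myosin genes, Acta2 stood apart from the rest. Acta2, the smooth muscle alpha-actin that marks myofibroblasts and stress fibres, measured 11.68, 11.23 and 11.31 on Ta and 11.90, 12.01 and 11.90 on Ti. Every Ta array was lower than every Ti array, with Ta replicate 1 the nearest. The difference was -0.53 ± 0.13, a signal 1.44-fold lower on Ta, with a limma adjusted p of 0.0709, and it was -0.67 without Ta replicate 1, where it passed. Actg2, the gamma-actin of visceral smooth muscle, measured 11.47, 11.51 and 11.77 on Ta and 11.26, 12.03 and 11.39 on Ti. Here a single array, Ti replicate 2, exceeded all others, and the difference was 0.02, with -0.02 on the second probe. The actin genes are near-identical in their coding sequence and whether each probe is specific was not checked.

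Myl9, the regulatory light chain of smooth muscle and nonmuscle myosin, measured 12.56, 12.75 and 13.08 on Ta and 12.49, 12.99 and 12.56 on Ti, and the groups overlapped. Its difference was 0.12 (95% interval from -0.34 to 0.57). Mylk, the kinase that phosphorylates this light chain, measured 9.53, 9.03 and 9.41 on Ta and 9.54, 9.74 and 9.42 on Ti. Ta replicate 2 was lowest and Ti replicate 2 highest, and the difference was -0.25 ± 0.16 (limma adjusted p = 0.343), which became -0.099 without Ta replicate 2 and -0.16 without Ti replicate 2. Myh11, the smooth muscle myosin heavy chain and a marker of mature smooth muscle, differed by 0.05 (95% interval from -0.25 to 0.35).

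Among the 10 actin-binding and thin filament genes 0 passed in limma (1 before adjustment), where 4.12% and 30.0% of all genes did. The differences ran from -0.25 to 0.39. Tagln, or transgelin, an early smooth muscle marker, measured 13.84, 13.92 and 14.01 on Ta and 13.95, 14.24 and 13.995 on Ti, a difference of -0.14 (95% interval from -0.40 to 0.12). The calponins, which bind actin and slow myosin, differed by 0.12 for Cnn1, -0.04 for Cnn2 and 0.05 for Cnn3. Cald1, which encodes caldesmon, differed by -0.01 on its brightest probe and by 0.24 and 0.37 on dimmer probes. Lmod1, a nucleator of actin filaments in smooth muscle, measured 6.37, 6.13 and 6.56 on Ta and 6.62, 6.46 and 6.71 on Ti. The groups overlapped, with a difference of -0.25 ± 0.14 (limma adjusted p = 0.277), and its second probe differed by -0.38. On the brightest probe it was -0.13 without Ta replicate 2 and -0.11 with normexp background correction.

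Tropomyosins wind along the actin filament and come in many spliced forms. Tpm4 measured 12.99, 13.24 and 13.21 on Ta and 12.67, 12.88 and 12.73 on Ti, and every Ta array was higher than every Ti array. The difference was 0.39 ± 0.11, a signal 1.31-fold higher on Ta, with a limma adjusted p of 0.0792, and it was 0.46 and passed without Ta replicate 1. Tpm1 differed by 0.03, Tpm2 by 0.21 and Tpm3 by 0.13 on their brightest probes. The 3 other Tpm1 probes, designed on NM_001034068, gave 0.16, 0.22 and 0.35, and the 2 other Tpm2 probes gave 0.24 and 0.29.

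Tpm3 had 8 probes, the most of any gene in the set. They differed by -0.52 to 0.50, with 7 of 8 above 0. The probe at -0.52 was dim and well above background on 2 Ta and 3 Ti arrays. Another dim probe, at 0.33, was well above background on 2 arrays of each group. The probe designed on NM_057208 that reached 0.50 ± 0.10 measured 5.46, 5.48 and 5.32 on Ta and 4.78, 4.96 and 4.996 on Ti, and passed with each probe tested on its own (adjusted p = 0.0490). A second probe on NM_057208 gave 0.28. A much brighter Tpm3 probe gave 0.43 ± 0.10, with every Ta array above every Ti array. It did not pass in the same fit (limma adjusted p = 0.0594). A still brighter one gave 0.02 with overlapping groups. The Tpm3 probe at 0.50, the Ptpn14 probe above and the single Fhl1 probe passed in this fit. They are 3 of the 52 probes of the set, against 4.31% of all probes, a share close to that background. In all, 10 genes had several tested probes, 30 in sum; in 5 genes all probes had 1 sign and in 5 (Actg2, Axl, Cald1, Ptpn14 and Tpm3) they did not.

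**Figure D4:**
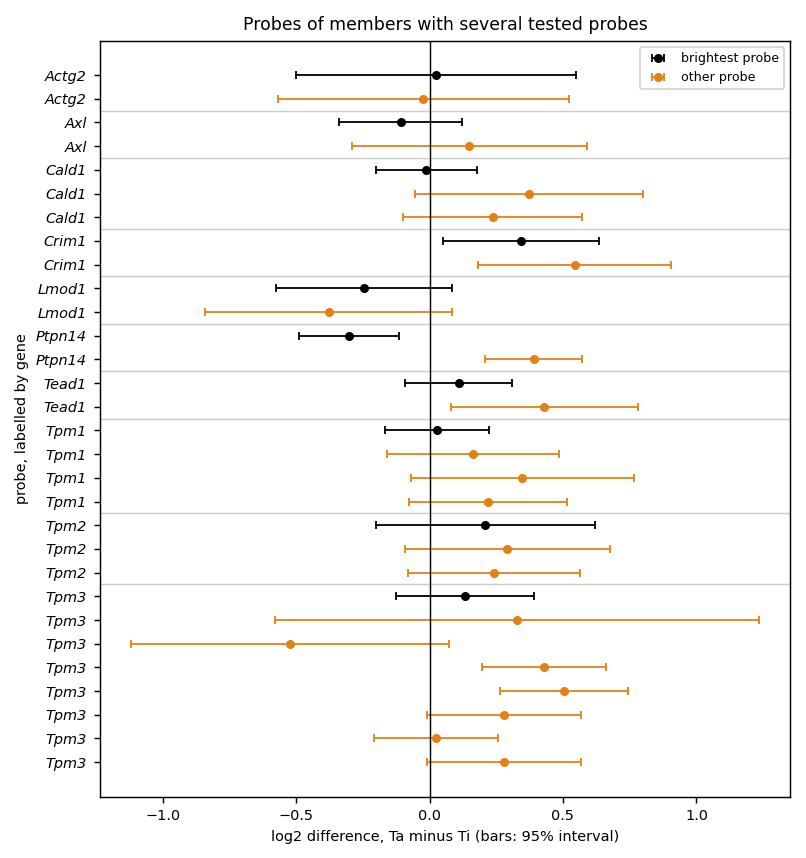
Log2 difference, Ta minus Ti, of the 30 tested probes of the 10 genes with several probes (points) with 95% intervals (bars), the brightest probe of each gene in black and the others in orange. The Ptpn14 probes lie on opposite sides of 0, at -0.30 and 0.39, and 7 of 8 Tpm3 probes lie above it.

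A pattern seen after the values were known concerns Ti replicate 2. It was the highest Ti array for 11 of the 15 actin, myosin and actin-binding genes (73.3%) and for 18 of all 32 genes (56.2%), against 36.9% of all tested genes. Outside the set it was so for 68.4% of the tested Hippo pathway core and 51.5% of the other SRF targets and actin genes, and nothing particular to the contractile genes is read from it. For Acta2, Actg2, Mylk, Tagln, Cnn1 and Cnn3 it lay above all 5 other arrays, with Cnn1 at 7.68 against 7.21 and 7.23 on the other Ti arrays and 7.41 to 7.55 on Ta. In F3 and Tpm2 it lay within the Ta range while the other Ti arrays lay below it. Without Ti replicate 2 the differences of Actg2, Myl9, Cnn1, Tpm2 and F3 were 0.26, 0.27, 0.27, 0.32 and 0.38, and these 5 genes did not pass.

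Related genes outside the set were taken from 3 lists. Of 20 genes of the Hippo pathway core, 19 were tested and 0 passed in limma (6 at an unadjusted p under 0.05), where 4.12% and 30.0% of all genes did. The median difference was 0.03, and the groups did not overlap in 8 of the 19 (42.1%), against 35.8% of all genes. Taok1, a kinase upstream of Hippo signalling, measured 9.01, 9.43 and 9.21 on Ta and 8.33, 8.89 and 8.47 on Ti, a difference of 0.65 ± 0.18 (limma adjusted p = 0.0822). Lats1, the sister kinase of Lats2, differed by -0.47 ± 0.15 and Sav1, the scaffold of the upstream kinases, by -0.44 ± 0.13 (limma adjusted p = 0.0983 and 0.0933). Without Ta replicate 1 there was 1 gene of the list past the test (16.4% of all genes), and without Ti replicate 2 there were 3 (7.97%). Yap1 differed by 0.06 (95% interval from -0.19 to 0.32) and Wwtr1, which encodes TAZ, by 0.11 (from -0.22 to 0.45). Yap1 and Wwtr1 fall outside the naming rule and were picked with their values known.

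Of 14 other YAP targets, 2 fell, 0 rose and 12 did not pass, with a median of 0.02, and the groups did not overlap in 8 (57.1%). Of all genes 4.12% passed, 1.47% lower on Ta, and 35.8% did not overlap. Thbs1, the matricellular protein thrombospondin, measured 11.77, 11.69 and 11.65 on Ta and 12.40, 12.30 and 12.25 on Ti, with tight and well separated groups. It fell by 0.61 on the log2 scale (SE 0.08, limma adjusted p = 0.0396), and with the mean of its probes the difference was -0.48 and did not pass. Ccdc80, a secreted matrix protein, measured 15.15, 14.43 and 14.02 on Ta and 16.05, 15.91 and 16.06 on Ti. It fell by 1.47 (SE 0.28, limma adjusted p = 0.0477). Neither passed with slide row as a block (-0.70 for Thbs1 and -1.52 for Ccdc80) or with no filter on dim probes, settings in which 0 of all genes passed in limma (3837 and 5814 before adjustment). With replicate number as a block neither gene passed (limma adjusted p = 0.0781 for Thbs1 and 0.0818 for Ccdc80), and 8 of all genes did. Both passed without Ta replicate 1, at -0.65 and -1.78. Neither passed when Ta replicate 2 or 3 or Ti replicate 1 or 3 was left out (differences of -0.65 to -0.57 for Thbs1 and -1.45 to -1.22 for Ccdc80), and without Ti replicate 2 Thbs1 passed and Ccdc80, at -1.52, did not. Igfbp3, a carrier of insulin-like growth factors, had the largest difference in the list, -1.66, at 12.66, 11.54 and 10.99 on Ta and 13.24, 13.49 and 13.45 on Ti, and did not pass (limma adjusted p = 0.067).

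Of 34 other SRF targets and genes of the actin cytoskeleton, 33 were tested. In limma 0 passed (12 at an unadjusted p under 0.05), where 4.12% and 30.0% of all genes did. The median was 0.09, with 21 of 33 above 0, and the groups did not overlap in 15 of the 33 (45.5%), 8 with Ta above and 7 with Ta below, against 35.8%, 19.5% and 16.3% of all genes. The largest differences were lower signals on Ta, -0.91 for Des, the muscle intermediate filament desmin, -0.67 for Acta1, the skeletal muscle actin, and -0.57 for Vcl, the focal adhesion protein vinculin (limma adjusted p = 0.0646, 0.108 and 0.0678). Des measured 7.37, 6.63 and 6.79 on Ta and 8.02, 7.87 and 7.64 on Ti, so that the groups did not overlap. Without Ta replicate 1 there were 5 genes of the list past the test (16.4% of all genes), and without Ti replicate 2 there were 2 (7.97%).

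**Figure D5:**
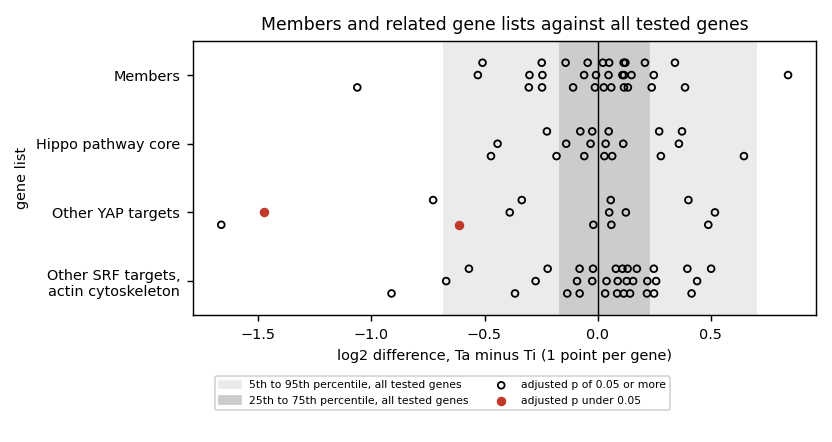
Log2 difference, Ta minus Ti, of each gene (points) in the set and in 3 related lists, against the 5th to 95th and 25th to 75th percentiles of all 19616 tested genes (light and dark grey bands, from -0.68 to 0.70 and from -0.16 to 0.23). Thbs1 and Ccdc80 (filled) passed the adjusted threshold, and most of the 32 genes lie inside the light band.

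Some markers of other cell types passed the test, and their part in the values above was not tested. Levels are given as the sum of scaled signal over the tested markers of a list, lowest to highest array. Of all genes 2.66% passed higher on Ta and 1.47% lower. For 15 macrophage markers (1 fell, Cd5l) it was 57820 to 111200 on Ta and 110300 to 130400 on Ti. Bright markers weigh most in that sum. All but Cd14 were lower on Ta, with a median difference of -1.09. The groups did not overlap in 8 (53.3%), 7 with Ta below, against 35.8% of all genes. For 5 of 8 mast cell markers (4 fell) the sum was 240.1 to 343.6 on Ta and 991.5 to 1833 on Ti. Mcpt8 was the brightest of them on every array and weighs most in that sum. Fcer1a differed by -0.25 with overlapping groups and did not pass (limma adjusted p = 0.685). The 4 that fell were Kit, Mcpt8, Cpa3 and Cma1. Of these Cma1 was well above background on 0 Ta and 3 Ti arrays, and Cpa3 on 1 and 3, so that they passed the filter through Ti, where they were high. Ms4a2 was not well above background on any of the 6, and Tpsb2 and Tpsab1 only on 2 arrays each. For 3 of 7 neutrophil markers (2 rose) it was 262.2 to 617.3 on Ta and 82.2 to 135.2 on Ti, with S100a9, Elane, Ngp and Ltf not well above background.

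Pericytes and muscle cells share contractile genes with this set. For 6 of 7 pericyte markers the sum was 8847 to 10530 on Ta and 10050 to 10540 on Ti. Of the 6, 5 were higher on Ta and only Cspg4 was lower, with a median difference of 0.22. The groups did not overlap in 4 (66.7%), 3 with Ta above and 1 with Ta below, against 35.8% of all genes. Cspg4, the NG2 proteoglycan, fell by 1.87 and the potassium channel gene Kcnj8 rose by 1.13 ± 0.22 (limma adjusted p = 0.0422 and 0.0488), and Rgs5 was not well above background. For 5 of 8 skeletal muscle markers it was 409.8 to 583.5 on Ta and 794.8 to 845.6 on Ti. Myod1, the muscle-determining transcription factor, fell by 1.43 (SE 0.15, limma adjusted p = 0.0385), while Myh2, Ckm and Ttn were not well above background. For 7 of 8 endothelial markers it was 2380 to 2610 on Ta and 2273 to 2435 on Ti, with 0 past the test in limma (2 at an unadjusted p under 0.05). Most of that sum came from Vwf and Egfl7, while 5 of the 7 were lower on Ta and the median difference was -0.39. As for the labelled cell type, 13 of 14 marrow stromal markers were measured, with sums of 283500 to 304900 on Ta and 288100 to 292000 on Ti. Of them 2 rose, Thy1 by 0.67 and Cxcl12 by 1.06, and 0 fell in limma, where 2.66% of all genes rose and 1.47% fell. The list was mixed, with 6 of 13 higher on Ta and a median difference of -0.07. The groups did not overlap in 7, 4 with Ta above and 3 with Ta below. Col3a1 had the largest lower signal on Ta, at -0.68 (limma adjusted p = 0.0663). Lepr was not well above background, and Nt5e is both in this list and in the set described here.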

How the data were processed

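Per the file headers, the deposited values are 1-colour spot intensities on a linear scale, background-subtracted and detrended within each array by Agilent Feature Extraction (12.0 in the submitters' processing notes), with no scaling between arrays. Other flags used are the deposited well-above-background, saturation and outlier flags. The deposited value table equalled these intensities in 100% of values. Ta replicate 2 and Ti replicate 3 hold 3 significant digits.

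The log2 intensity of each array was reduced by its 75th percentile over 58717 non-control spots, and the mean percentile added back. Outlier spots were treated as missing and spots of a probe averaged. Probes well above background on at least 3 of 6 arrays were kept (25774 with a value on every array), and a gene took its brightest probe (19616 genes). Names came from the file of Ta replicate 1, updated through a RefSeq table of GRCr8 for 30650 of 45598 probes. No genome was used, and the array's build is not given in the sources used here.

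Groups were compared in R 4.3.3 with limma 3.58.1 (lmFit, eBayes, two-sided; Benjamini-Hochberg over all genes, threshold 0.05). SE is limma's moderated standard error. On simulated data for this comparison (19616 genes) the test recovered 60% of genes given a log2 change of 1 and 88% of genes given a log2 change of 2, with 7 false calls among 155. The number of arrays limits the precision. The genes and lists were chosen with earlier results of these data known. Full statistics were planned for genes past the test and the 12 largest differences, and in the related lists for genes past the test and the largest differences, up to 3 per list. Alternatives were other scalings, background correction, filters, probe rules, blocks, weights, settings of eBayes, rounding, and leaving out arrays.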

Additional observations from a re-analysis of the deposited data

How the results depend on the processing

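The 0 genes of the set called by limma (8 at an unadjusted p under 0.05) became 1 under median scaling and 1 with probes well above background on all 6 arrays (Fhl1 in both), 4 after normexp correction and 4 under the trend and robust options of eBayes (Fhl1, Acta2, Ptpn14 and Tpm4 in both), and 15 when arrays were weighted. The weight was 7.33 for Ta replicate 2 and between 0.319 and 2.75 for the rest. Leaving out each array gave 0 to 4. Leaving out both Ta replicate 1 and Ti replicate 2, an alternative added with the results known, gave 7. Of all genes 809 were called (521 higher, 288 lower). This became 2602 after normexp, 2106 under trend and robust options, 10179 with weighted arrays, 0 without the filter for dim probes (5814 unadjusted, limma), 0 with slide row as a block (3837 unadjusted), 0 to 3221 without single arrays and 4840 without both. Median scaling split the calls into 416 higher and 361 lower. Blocking on slide row leaves Ti replicate 1 as the only Ti array beside the Ta arrays. The cause of these changes was not tested.

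With the replicate block 8 genes were called, 0 of them in the set (8 unadjusted, limma), and Thbs1 and Ccdc80 did not pass (limma adjusted p = 0.0781 and 0.0818). Deviations of same-numbered arrays correlated at 0.06, 0.13 and -0.18, in order of replicate number. With so few arrays per group these correlations cannot decide whether the numbers pair the arrays, and no conclusion is drawn from them. Only for number 2 was the best correlation the one with the same-numbered array.

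Signs changed only for small differences or where probes disagree. These were Fhl2 (0.0017) and Cald1 (0.0046) under quantile scaling, Actg2 (-0.011) and Tpm1 (-0.0072) under median scaling, Fhl2 (0.0034) and Actg2 (-0.024) after normexp, Cnn2 (0.0032) and Tpm1 (-0.019) with weighted arrays, Axl (0.020), Ptpn14 (0.045), Actg2 (-8.8e-05) and Cald1 (0.20) with the mean of probes, and Axl (0.0013) and Cald1 (0.027) with slide row as a block. Ranges that crossed 0 when single arrays or both were left out were -0.058 to 0.25 for Nt5e, -0.11 to 0.13 for Fhl2, -0.13 to 0.32 for Actg2, -0.025 to 0.39 for Myl9, -0.0093 to 0.15 for Myh11, -0.11 to 0.032 for Cnn2, -0.033 to 0.16 for Cnn3, -0.043 to 0.028 for Cald1 and -0.0015 to 0.064 for Tpm1. Signal over background limits Ankrd1.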
